A study of Mus musculus with 24 samples.

Results

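The response of control MC38 cells to 6 h of TNF was taken from 8 of the 24 libraries of the study, 4 from untreated cells and 4 from cells given TNF for 6 h, and from all 13272 of 15390 genes with a log2 value of 0 or more in 4 or more of the 24 libraries. MC38 is a mouse colon carcinoma line. The cells of both groups had the genotype given as control and carried 1 of 2 control guide RNAs, Control gRNA 1 or Control gRNA 2, with 2 libraries per guide in each group. The other libraries of the study came from the same guides after 1 h of TNF and from cells with guides against Ado, called Ado KO, a thiol dioxygenase gene. Libraries are named below by guide and replicate, so that 1-2 is replicate 2 of guide 1. Whether a guide population was a pool or a clone was not given in the sources used here. No time was given for the untreated cells and no untreated 6 h library was analysed here, so TNF and the time or handling that came with it cannot be told apart. Whether replicates were separate cultures was not given either, and the p-values therefore reflect only library-to-library spread, part or all of which may be technical.

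TNF is an inflammatory cytokine whose receptor, TNFR1, assembles a complex that activates the IKK kinases. IKK marks IkB proteins for destruction, which frees NF-kB dimers to enter the nucleus and to switch on chemokines, adhesion molecules, survival factors and the inhibitors of the pathway itself, among them IkB-alpha and A20. The same receptor complex activates MAP kinases, which feed AP-1 factors, and can start cell death when the survival genes are not made.

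RNA was read near the poly(A) tail with a QuantSeq 3' mRNA kit, and each value is a log2 CPM, that is, the log2 of a tag count scaled to the library total. No library size was stated. If the lowest value of the table, -3.349, stands for 0 tags with an offset of 0.5, the typical depth was about 5100000 tags, and 696 to 962 genes per library stood at that lowest value. Across genes, which are not independent replicates, pairs within the untreated or the 6 h group had r of 0.9631 to 0.9729 and pairs between them 0.9255 to 0.9537. Of 16 epithelial and colon carcinoma markers 13, Epcam, Krt19, Krt20, Vil1 and Cdx2 among them, had no row in the values analysed here, and the summed level of the other 3 was 1.2 to 2.84 CPM untreated and 0.491 to 2.1 CPM at 6 h. The summed immune markers, of which 10 of 22 had a row, lay at 9.18 to 29.5 CPM untreated and 12.9 to 51.7 CPM at 6 h, with 0 of 7 tested called by limma. The fibroblast and pericyte markers (9 of 12 with a row) summed to 89.9 to 125.0 CPM untreated and 72.6 to 96.0 CPM at 6 h, and the endothelial ones (3 of 10) to 3.17 to 5.48 and 0.712 to 2.77 CPM. Of these, 2 of 8 fibroblast and pericyte markers tested were called lower by limma, Pdgfrb by 1.48 and Col3a1 by 0.66, and 1 of 2 endothelial ones, Eng, by 1.78, while 0 of 1 epithelial marker tested was called. Their part in the results below was not tested. In bulk RNA, fewer cells of a type and less RNA per cell cannot be told apart.

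Limma called 1027 genes higher (7.74% of 13272) and 1365 lower (10.3%) after 6 h of TNF at an adjusted p under 0.05. These shares are the background for the counts of list members given below on the deposited scale. Among the 15 largest rises of protein-coding genes with a mean of at least 3 log2 CPM in the higher group, the level that the naming rule asks for, were the cytokine Lif, the chemokines Cxcl1, Ccl2, Cxcl10 and Ccl7 and the NF-kB inhibitors Nfkbia and Nfkbie, and among the 15 largest falls by the same rule Etv1, Chst1, Ddit4, Id1 and Id3. Of protein-coding genes other than histone and mitochondrial ones, 151 rose by at least 1 on the log2 scale and 140 fell by at least 1, while 39 rose and 25 fell by at least 2. The balance of rises and falls depended on the scale of the values. Of these 10733 protein-coding genes 607 rose and 1190 fell on the deposited scale, where 33.8% of the calls were rises. After they were normalised again among themselves 681 rose and 708 fell, so that 49.0% were rises, and 607 of these rises and 708 of these falls had also been called on the deposited scale. With the protein-coding median set equal in all libraries, 1116 of all genes rose and 862 fell (56.4% rises), against 42.9% rises on the deposited scale. The median log2 difference over all genes was -0.09, and -0.04 after the second normalisation of the protein-coding genes.

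Lif, a cytokine of the interleukin 6 family, showed the largest rise that met the naming rule. The untreated libraries read -3.35, -0.06, -1.76 and 0.21 log2 CPM, the first of them at the lowest value of the table, and the TNF libraries 3.22, 3.25, 3.52 and 4.16. The groups did not overlap, which the naming rule asks of each protein-coding gene it names. The log2 difference was 4.78 ± 0.62 (SE; limma adjusted p = 6.4e-07), or 4.07 without untreated library 1-1. Cxcl1, a chemokine that draws neutrophils, read -0.89, 1.31, 1.88 and 2.31 untreated and 4.54, 4.87, 5.82 and 5.89 with TNF. It rose by 4.13 ± 0.38 (SE; limma adjusted p = 6.4e-10), and by 3.49 without untreated library 1-1, its lowest.

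Ccl2, which draws monocytes, read 5.29, 5.82, 6.43 and 6.54 log2 CPM untreated and 9.88, 10.03, 10.09 and 10.09 with TNF. The TNF libraries lay close together at a mean of 10.02 ± 0.10 (SD, n = 4), far above the highest untreated one, a difference of 4.00 ± 0.32 (SE; limma adjusted p = 1.4e-11). The other chemokine genes that rose were Ccl7, Cxcl10, Cx3cl1 and Ccl5. Ccl7, a second monocyte chemokine next to Ccl2 on chromosome 11, rose by 2.10 ± 0.34 (SE). Cxcl10, a ligand of the chemokine receptor CXCR3, rose by 2.41 ± 0.16 and Cx3cl1 by 2.13 ± 0.45 (SE). Ccl5, which draws T cells and monocytes, rose by 1.28 ± 0.10 (SE). In all 6 of 9 measured chemokine genes rose and 0 fell, with a median log2 difference of 2.10 against -0.09 over all genes. The other 3, Ccl25, Ccl27a and Xcl1, did not pass the test. The filter could keep a gene through the TNF libraries alone. Without it 7 of 13 rose and 0 fell, with a median of 1.69.

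Of 28 measured cytokines and growth factors 13 rose and 3 fell (median log2 difference 0.42), the falls a share near the 10.3% of all genes. Hbegf, a ligand of the EGF receptor, read 3.65, 3.25, 3.35 and 3.73 untreated and 5.65, 5.51, 5.31 and 5.54 at 6 h, a rise of 2.00 ± 0.12 (SE; limma adjusted p = 2.6e-14). Csf1, the macrophage growth factor, read 6.22, 6.27, 6.56 and 6.64 untreated and 8.13, 8.35, 8.48 and 8.49 at 6 h, a rise of 1.94 ± 0.12 (SE; limma adjusted p = 4.8e-14). That neither gene's groups overlapped was a condition of the naming rule. Inhba, a subunit of activin, rose by 1.71. Those that fell were Grn, Tgfb3 and Gdf11, the last by 0.54, and the call of Gdf11 ended in 5 of the 8 fits that left out 1 library. Receptors for cytokines moved as well, with 8 of 40 receptor and JAK-STAT genes higher and 3 lower, the latter a share not above the 10.3% of all genes. Il15ra, which presents interleukin 15, rose by 1.98, the interferon gamma receptor subunit Ifngr2 by 1.36 and Il4ra, the interleukin 4 receptor, by 1.21. Il17rc, an interleukin 17 receptor subunit, fell by 0.96, and the STAT inhibitors Pias3 and Pias4 fell by 0.85 and 0.46.

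**Figure D1:**
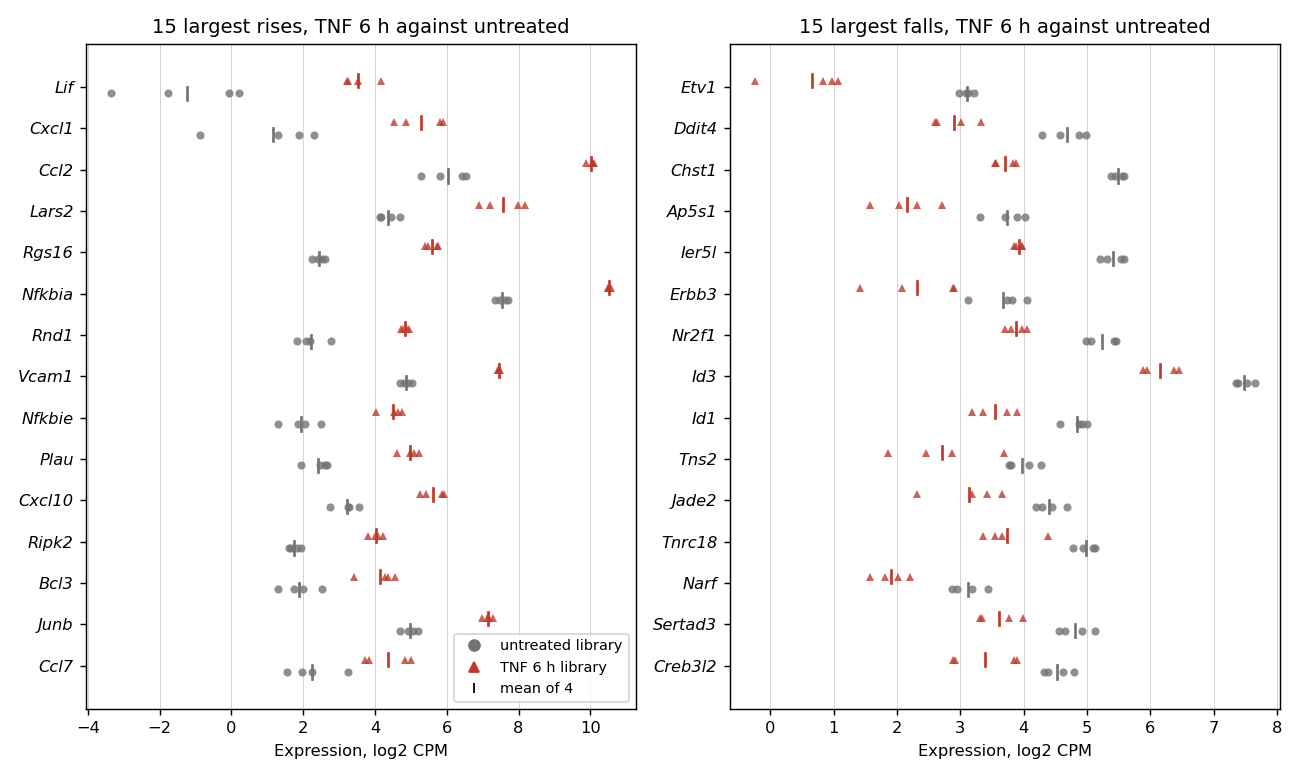
Level in log2 CPM (horizontal axes) of the 15 largest rises (left) and 15 largest falls (right) that met the naming rule. Grey circles are the 4 untreated control libraries, red triangles the 4 TNF 6 h libraries and vertical ticks the means of 4. The groups do not overlap in any of the 30 genes because the naming rule requires it.

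Genes of NF-kB itself and of its inhibitors rose. Nfkbia, which encodes IkB-alpha, the inhibitor that is destroyed and remade in each round of NF-kB activity, read 7.48, 7.71, 7.34 and 7.62 log2 CPM untreated and 10.53, 10.57, 10.48 and 10.50 with TNF. The difference was 2.99 ± 0.08 (SE; limma adjusted p = 5.2e-24). Nfkbie, which encodes IkB-epsilon, rose by 2.56 ± 0.23, Bcl3, a nuclear IkB protein that works with p50 and p52, by 2.26 ± 0.25 and Nfkbib, which encodes IkB-beta, by 0.84 ± 0.13 (SE). Nfkbiz, Nfkbid and Nfkbil1 did not pass the test, so 4 of 7 rose and 0 fell.

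Of the 5 subunit genes 4 rose. Relb, the partner of p52 in the slower noncanonical branch, read 4.87, 4.62, 4.88 and 5.04 untreated and 6.66, 6.61, 6.67 and 6.75 with TNF, a rise of 1.82 ± 0.09 (SE; limma adjusted p = 4.5e-16). Nfkb2, the precursor of p52, rose by 0.98 ± 0.09 and Rela, the canonical p65 subunit, by 0.63 ± 0.08 (SE). Nfkb1, the precursor of p50, rose by 0.93 ± 0.23 (SE), with 1 untreated library at 1.93 and the other 3 at 3.42 to 3.80, and by 0.52 without that library. Rel differed by 0.27 ± 0.61 (SE; limma adjusted p = 0.801).

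Among adaptors and feedback proteins 7 of 20 rose and 0 fell. Tnfaip3, which encodes the ubiquitin-editing protein A20, read -1.67, -0.44, -1.76 and -0.06 untreated and 1.69, 1.95, 2.66 and 2.83 at 6 h, a rise of 3.27 ± 0.39 (SE; limma adjusted p = 1.4e-07). These untreated values all lay below the filter's cut of 0, so the gene was kept through other libraries. Traf1, an adaptor at TNF receptors, rose by 1.62 ± 0.13, Tnip1, a partner of A20, by 1.52 ± 0.13 and Tnfaip2 by 0.65 ± 0.07 (SE). Of 24 genes of the receptor complex and the IKK kinases 1 rose and 1 fell, with a median of 0.02. They were Traf5, an adaptor, higher by 0.74 (a call that ended in 5 of the 8 fits that left out 1 library), and Map3k14, the kinase NIK of the noncanonical branch, which fell by 0.90 ± 0.18 (SE; limma adjusted p = 6.95e-04). The receptor gene Tnfrsf1a differed by -0.17 ± 0.08 (SE; limma adjusted p = 0.112). Ripk2, a kinase that links NOD receptors to NF-kB, rose by 2.29 ± 0.21 (SE).

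The promoters of some of these genes were set beside their response, since NF-kB acts through a short DNA site. Letters were searched on both strands in the 250 bases before each RefSeq start (GRCm38.p6), which were found for 8720 of the 13272 genes and gave 11133 windows, as 1777 genes had several. The motifs were the NF-kB consensus by its usual degenerate form, the AP-1 site TGANTCA and the interferon response element GAAANNGAA, where N is any base. Of windows of protein-coding genes 4.63% held the NF-kB consensus. The share was 9.34% (59 of 632 windows) for the protein-coding genes called higher and 3.12% (38 of 1218) for those called lower. AP-1 letters were in 5.22% of windows of the first group, 4.43% of the second and 4.38% of all, and interferon response letters in 7.59%, 5.99% and 6.04%. Of the interferon-stimulated genes 33.9% of 62 windows held the interferon response letters. These shares are a description, and a match of letters need not be a site that is bound.

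The windows below are those of the 5 chemokine, IkB, NF-kB feedback and surface genes with the smallest adjusted p among those that held the NF-kB consensus. Each is printed 5' to 3' on the strand of the gene and ends at the base before the start, and capitals mark matches to the NF-kB consensus on either strand. The Nfkbia window is chr12:55492648-55492897 on the minus strand, with 1 match that begins 29 bases before the start. The Cxcl10 window is chr5:92348890-92349139 on the minus strand, with 2 matches, 159 and 103 bases before the start. The Tnip1 window is chr11:54962941-54963190 on the minus strand, with 3 overlapping matches from 58 bases before the start. The Nfkbie window is chr17:45555450-45555699 on the plus strand, with 1 match 106 bases before the start. The Cxcl1 window is chr5:90890995-90891244 on the plus strand, with 2 overlapping matches from 71 bases before the start.
Nfkbia: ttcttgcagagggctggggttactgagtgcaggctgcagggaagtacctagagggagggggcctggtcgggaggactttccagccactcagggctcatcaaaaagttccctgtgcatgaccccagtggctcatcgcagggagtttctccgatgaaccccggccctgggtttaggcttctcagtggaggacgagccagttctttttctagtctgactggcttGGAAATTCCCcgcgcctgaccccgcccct
Cxcl10: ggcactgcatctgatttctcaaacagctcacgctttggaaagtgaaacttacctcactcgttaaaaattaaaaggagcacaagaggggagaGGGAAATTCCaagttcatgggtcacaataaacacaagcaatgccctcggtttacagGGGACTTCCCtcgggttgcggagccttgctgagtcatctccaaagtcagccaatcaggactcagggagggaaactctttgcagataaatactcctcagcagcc
Tnip1: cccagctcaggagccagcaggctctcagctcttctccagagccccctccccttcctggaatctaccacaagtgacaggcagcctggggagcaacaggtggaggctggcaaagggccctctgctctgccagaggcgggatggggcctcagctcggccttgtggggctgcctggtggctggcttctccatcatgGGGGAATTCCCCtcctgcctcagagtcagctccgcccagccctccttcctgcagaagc
Nfkbie: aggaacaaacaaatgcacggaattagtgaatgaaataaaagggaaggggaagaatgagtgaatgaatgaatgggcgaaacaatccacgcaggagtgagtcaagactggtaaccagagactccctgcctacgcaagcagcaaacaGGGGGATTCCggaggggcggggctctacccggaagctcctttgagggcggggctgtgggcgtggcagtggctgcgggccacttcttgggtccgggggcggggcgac
Cxcl1: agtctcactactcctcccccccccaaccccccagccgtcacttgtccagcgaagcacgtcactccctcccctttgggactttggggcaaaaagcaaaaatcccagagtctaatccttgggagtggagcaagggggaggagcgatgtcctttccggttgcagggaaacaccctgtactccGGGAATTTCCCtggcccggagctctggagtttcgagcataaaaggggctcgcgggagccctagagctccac
Among these windows the Cxcl10 one also held the AP-1 and the interferon response letters, the Nfkbie one the AP-1 letters and the Nfkbia one the interferon response letters. Traf1, Bcl3, Rela, Nfkbib, Birc3, Tnfaip2 and Cx3cl1 had windows with no match to the NF-kB consensus. Ccl2, Ccl5, Ccl7, Vcam1, Relb and Nfkb1 had no entry.

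Of 31 AP-1 and immediate-early genes 13 rose and 2 fell (median log2 difference 0.31). Junb, an AP-1 subunit, read 4.71, 5.19, 4.93 and 5.07 untreated and 7.17, 6.97, 7.29 and 7.13 at 6 h, a rise of 2.17 ± 0.12 (SE; limma adjusted p = 3.0e-15). Egr1, a zinc finger factor induced by ERK, rose by 1.91 ± 0.14, Ier5 by 1.62 ± 0.07 and Ier3 by 1.44 ± 0.11 (SE). Ier5l fell by 1.49 ± 0.13 and Batf3, which encodes a leucine zipper factor, by 1.15 ± 0.29 (SE). Of 21 feedback genes of the MAP kinases 7 rose and 1 fell: Dusp5, an ERK phosphatase, rose by 1.37, Spry2, an inhibitor of receptor tyrosine kinase signals, by 0.87 and Dusp16 by 0.82. Dusp9 was lower by 0.24, and this call ended in 5 of the 8 fits that left out 1 library and after the second normalisation. Of 23 mRNA decay factors 4 rose and 2 fell, the falls a share near the 10.3% of all genes. Neither of the falls, Tob1 and Khsrp, was called after the second normalisation. Zfp36, which speeds the decay of cytokine messages, rose by 1.42 ± 0.21, its relative Zfp36l1 by 0.69 ± 0.10 and Btg2, which recruits deadenylase to messages, by 2.80 ± 0.26 (SE).

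Among cell surface genes, Vcam1, the adhesion molecule that binds leukocyte integrin, read 4.69, 4.80, 4.92 and 5.02 log2 CPM untreated and 7.42, 7.48, 7.42 and 7.46 with TNF. It rose by 2.59 ± 0.09 (SE; limma adjusted p = 1.8e-20), by 2.70 in guide 1 and 2.47 in guide 2. In all 6 of 35 adhesion, costimulatory and surface receptor genes rose and 0 fell, with a median of 0.03. Pvr, a ligand of the receptors TIGIT and CD226, rose by 0.93, Cd47, the ligand that restrains phagocytes, by 0.66 and Tnfrsf10b, the TRAIL receptor, by 0.59. Of 41 proteases and their inhibitors 7 rose and 4 fell, the falls a share near the 10.3% of all genes. Plau, which encodes urokinase, read 2.66, 2.46, 1.95 and 2.60 untreated and 5.22, 5.08, 4.62 and 4.98 at 6 h, a rise of 2.56 ± 0.23 (SE; limma adjusted p = 3.5e-10). Its receptor gene Plaur rose by 1.74 ± 0.34, and the aggrecanase gene Adamts4 by 3.34 ± 0.58 (SE) from levels near the bottom of the scale, or by 2.63 without untreated library 1-2. Serpinb8, a protease inhibitor, fell by 2.47 ± 0.40 (SE). Of 35 collagens and matrix glycoproteins 3 rose, a share near the 7.74% of all genes, and 7 fell, with Sparc lower by 0.43 and Thbs2 by 0.31.

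Inflammatory enzymes and interferon genes rose in part. Ptges, a prostaglandin E synthase, read 7.10, 7.12, 7.12 and 7.07 untreated and 8.18, 8.32, 8.22 and 8.19 at 6 h, so that it rose by 1.12 ± 0.07 (SE; limma adjusted p = 2.4e-14). Ptgs2, which encodes the cyclooxygenase upstream of it, rose by 1.67 ± 0.18 (SE). Nos2, inducible nitric oxide synthase, was at the lowest value of the table in 3 of 4 untreated libraries and at 0.15 to 1.31 with TNF, and its difference of 3.70 ± 0.73 (SE) rests on that floor. Of 64 interferon-stimulated genes 18 rose, 2 fell and 44 were not called. Irf1, a transcription factor shared by interferon and NF-kB signals, rose by 1.21 ± 0.10, Irf5 by 1.96 ± 0.18 and Parp14 by 1.34 ± 0.19 (SE). Ifitm2 and Irf9 were lower by 0.35 and 0.27, and the call of Irf9 ended in 5 of the 8 fits that left out 1 library and after the second normalisation. Of 26 genes of class I presentation and the immunoproteasome 2 were higher, a share near the 7.74% of all genes, and 1 was lower. The 2 were H2-Q4 (1.23) and H2-Q6 (1.21), near-identical class I genes whose tags may be split between copies, and Calr, a chaperone of class I assembly, fell by 0.24.

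Of 39 BCL2 family, caspase and death regulator genes 4 rose and 4 fell, shares near the 7.74% and 10.3% of all genes, with a median of -0.01. Bid, which carries the caspase-8 signal to mitochondria, rose by 0.66 ± 0.10 and Cflar, which encodes the caspase-8 inhibitor FLIP, by 0.44 ± 0.11 (SE). Bcl2l11, which encodes BIM, rose by 0.94, while Casp9, the initiator caspase of the mitochondrial route, fell by 0.98 ± 0.22 and Bok by 0.55 ± 0.12 (SE). Of 39 p53 targets 10 rose and 2 fell, although the median was -0.11. Cdkn1a, a cell cycle inhibitor, rose by 1.31 ± 0.14, Gadd45b by 1.71 ± 0.21 and Mdm2, the ubiquitin ligase of p53, by 0.86 ± 0.10, and Phlda3 fell by 0.52 ± 0.10 (SE). Ern1, which encodes the endoplasmic reticulum stress sensor IRE1-alpha, read 3.37, 3.19, 3.01 and 3.12 untreated and 4.72, 4.33, 4.37 and 4.74 with TNF, a rise of 1.37 ± 0.16 (SE; limma adjusted p = 1.1e-07). Of the 28 other unfolded protein response genes 0 rose and 2 fell, Calr and P4hb, the latter by 0.20 in a call that ended in 4 of the 8 fits that left out 1 library. Slc7a11, the cystine transporter, rose by 1.46 ± 0.23 and Osgin1, an NRF2 target, fell by 2.11 ± 0.41 (SE). In the list of 34 genes for NRF2 and glutathione the calls were 3 higher and 5 lower, beside 7.74% and 10.3% of all genes.

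Signalling proteins outside the inflammatory lists were also among the largest rises. Rgs16, which shortens the signals of G protein-coupled receptors, read 2.61, 2.52, 2.41 and 2.25 untreated and 5.41, 5.74, 5.48 and 5.73 at 6 h, a rise of 3.14 ± 0.26 (SE; limma adjusted p = 6.2e-11). Rnd1, a small GTPase that loosens adhesion, rose by 2.63 ± 0.19 (SE). Of 10 RGS genes Rgs16 was the 1 that rose, and Rgs12, the 1 that fell, was lower by 0.80 ± 0.17 (SE). These shares are near the 7.74% and 10.3% of all genes. Ndrg1, a hypoxia- and stress-inducible gene, rose by 1.66 ± 0.11 and Ankrd1, a target of YAP, by 1.67 ± 0.13 (SE).

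By the naming rule, the largest falls were smaller than the largest rises. Etv1, an ETS transcription factor, read 3.12, 3.22, 3.09 and 2.98 log2 CPM untreated and 0.84, 0.97, -0.25 and 1.06 with TNF, a fall of 2.45 ± 0.25 (SE; limma adjusted p = 5.4e-09). Chst1, which sulphates keratan and other glycans, read 5.58, 5.55, 5.38 and 5.45 untreated and 3.84, 3.56, 3.55 and 3.88 with TNF, and it fell by 1.78 ± 0.10 (SE; limma adjusted p = 7.7e-15). Ddit4, an inhibitor of mTORC1, fell by 1.79 ± 0.19, the nuclear receptor gene Nr2f1 by 1.36 ± 0.14 and Erbb3, a receptor of the EGF receptor family, by 1.36 ± 0.25 (SE). Ap5s1, an adaptor subunit of vesicle traffic, fell by 1.58, and Tns2, Jade2, Tnrc18, Narf, Sertad3 and Creb3l2 fell by 1.14 to 1.27. With guide 2 alone the calls of Tns2 and Creb3l2 ended, at limma adjusted p = 0.1 and 0.056. Of the 15 largest falls Etv1, Ddit4 and Narf fell more in guide 2 and the rest more in guide 1. Sertad3, for example, changed by -1.69 in guide 1 and -0.72 in guide 2. No such difference passed the test, and that of Sertad3 had the smallest limma adjusted p of the 15, 0.0842. Among 15 ETS factors Etv5 fell too, by 0.49, and Ets1 rose by 0.67 ± 0.09 (SE). In all 2 of the 15 fell and 1 rose, shares near the 10.3% and 7.74% of all genes.

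The ID genes, known targets of BMP signalling that encode inhibitors of helix-loop-helix factors, fell. Id3 read 7.35, 7.39, 7.65 and 7.53 untreated and 5.94, 5.88, 6.37 and 6.46 with TNF, a fall of 1.32 ± 0.10 (SE; limma adjusted p = 2.8e-12). Id1 fell by 1.30 ± 0.19, Id2 by 0.98 ± 0.21 and Atoh8 by 2.56 ± 0.33 (SE). Of 21 BMP and TGF-beta targets and inhibitors 6 fell and 3 rose. Among the rises Tgif1, a repressor of SMAD transcription, was higher by 0.49 and Smurf1, a ubiquitin ligase, by 0.30.

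Of 40 sterol and fatty acid synthesis genes 16 fell and 0 rose, with a median of -0.20. Scd2, a fatty acid desaturase, fell by 0.64 ± 0.08, Mvd by 0.63 ± 0.12, Fdft1, squalene synthase, by 0.50 ± 0.11 and Insig1, which restrains the SREBP factors, by 0.63 ± 0.14 (SE). After the second normalisation of the protein-coding genes 11 of the 40 fell and 1 rose. The background for counts after that normalisation is 708 falls and 681 rises among 10733 genes. Of 41 hypoxia-inducible and glycolysis genes 11 fell and 3 rose, the rises a share near the 7.74% of all genes. They were Ndrg1, Hk2, a hexokinase, by 0.66 ± 0.10 (SE) and Vegfa by 0.58 ± 0.12 (SE). After the second normalisation 5 fell. Of 15 circadian clock genes 5 fell and 0 rose, with Tef lower by 0.64 ± 0.09 and Dbp by 1.46 ± 0.32 (SE), and after the second normalisation 2 fell. Of 39 lysosome and autophagy genes 10 fell, among them Tfeb, the factor that drives lysosomal genes, by 1.40 ± 0.30 (SE), and 2 rose, Asah1 and the autophagy receptor gene Sqstm1 by 0.39 ± 0.07 (SE). After the second normalisation 6 fell.

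For genes of abundant messages the calls depended on the scale. Of 83 ribosomal protein genes annotated as protein coding 30 fell and 0 rose, at a median of -0.15. After the second normalisation 7 fell, near the share over all genes there, 708 of 10733. Of 79 nuclear genes of the respiratory chain 20 fell and 0 rose, and 14 of 78 after it. Actb, a cytoskeletal actin gene, was lower by 0.46 ± 0.09 (SE; limma adjusted p = 2.1e-04) on the deposited scale and was not called on the other (limma adjusted p = 0.864). Of 40 S phase genes 8 fell and 1 rose, with a median log2 difference of -0.13. Of 41 genes of G2 and mitosis 6 fell and 1 rose, with a median of -0.00, a share of falls near the 10.3% of all genes. Tk1, thymidine kinase, fell by 0.44 ± 0.08 and Cdc25b, a mitotic phosphatase, by 0.48 ± 0.08, while Top2a rose by 0.50 ± 0.12 (SE). Of 48 ribosome biogenesis genes 10 rose and 1 fell, with Rrs1 up by 0.61 ± 0.08 and Wdr43 by 0.63 ± 0.09 (SE).

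**Figure D2:**
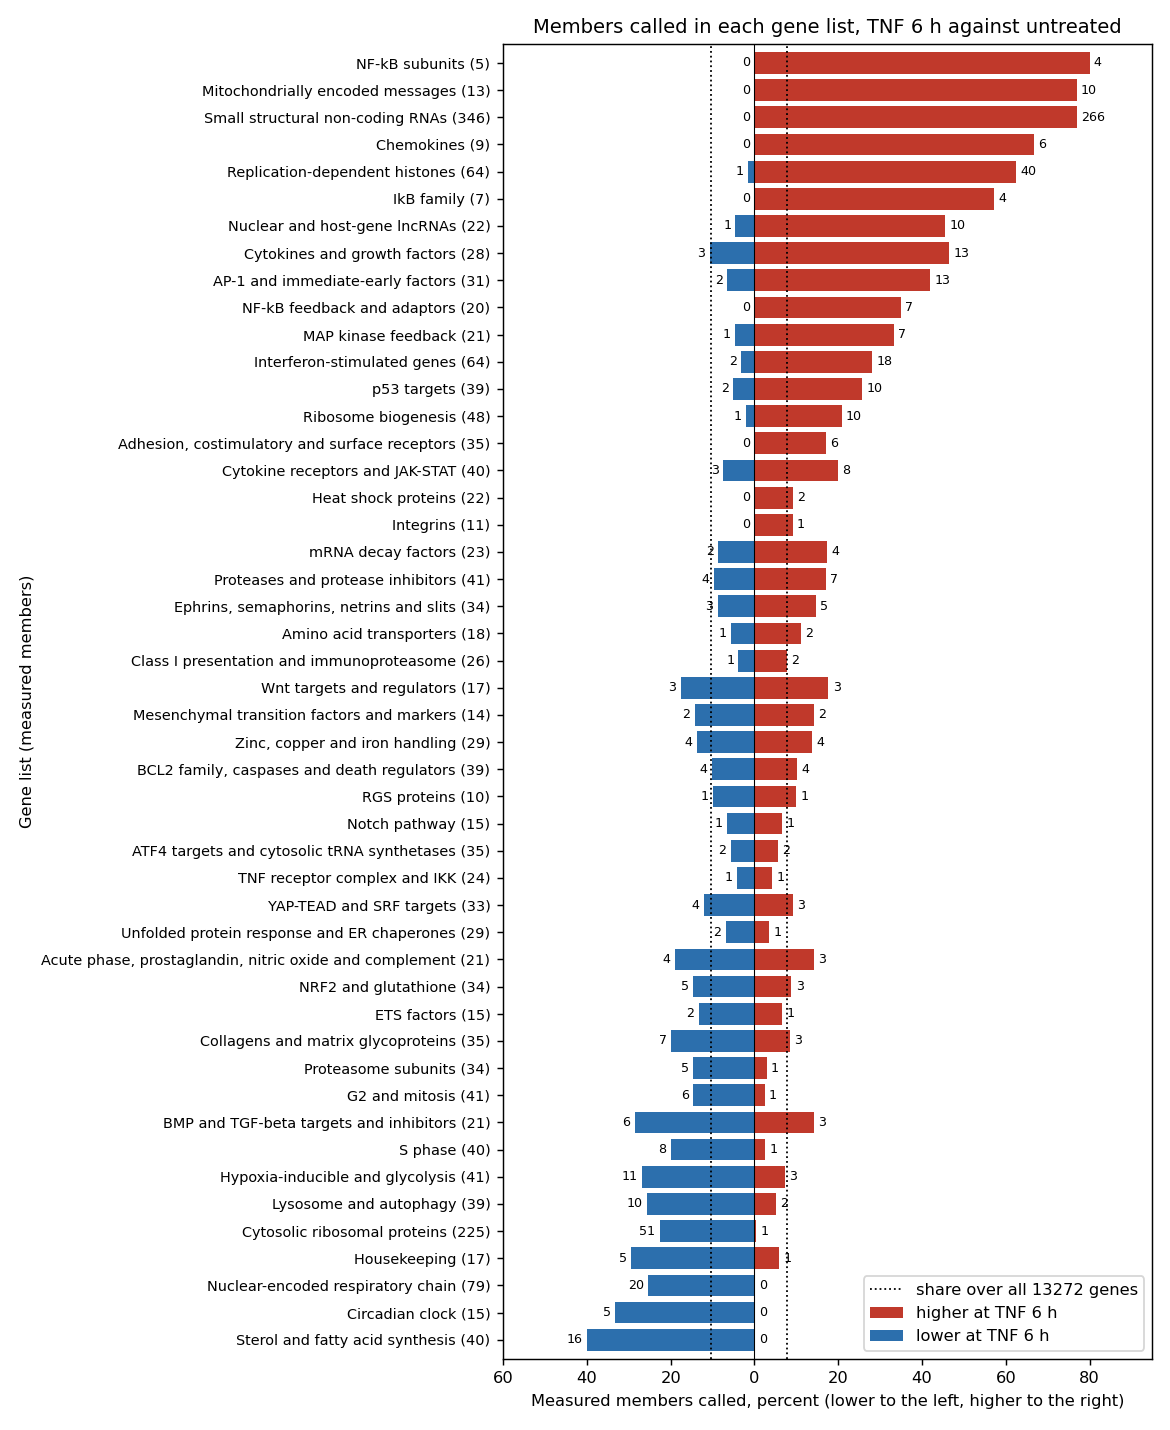
Share of measured members called higher (red, to the right) or lower (blue, to the left) at 6 h in each gene list, in percent, with the number called at the end of each bar and the number measured in parentheses after the name of the list. Dotted lines mark the shares over all genes, 7.74% higher and 10.3% lower. The NF-kB subunits have 4 of 5 and the chemokines 6 of 9 members higher, and sterol and fatty acid synthesis has 16 of 40 lower.

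RNAs that as a rule carry no poly(A) tail made up much of the count of rises. Of 346 small structural RNAs measured 266 rose and 0 fell, with a median log2 difference of 2.17, among them 176 of 228 snoRNAs and 58 of 72 snRNAs. Without the filter, which could keep a gene through the TNF libraries alone, 330 of 505 rose and 0 fell (median 2.04). Rn7sk, an RNA that keeps P-TEFb from driving transcription elongation, read 4.80, 5.05, 5.47 and 5.61 untreated and 12.47, 12.58, 11.87 and 11.79 at 6 h. Its rise of 6.94 ± 0.17 (SE; limma adjusted p = 6.9e-25) was above that of any protein-coding gene named here, and the ribonuclease P RNA gene Rpph1 was higher by 5.05 ± 0.20 (SE). Small RNAs held 0.264 to 0.305% of the summed values in the untreated libraries and 2.18 to 3.35% at 6 h. At 6 h both libraries of guide 1 were above both of guide 2. Many of these genes have near-identical copies between which tags may be split.

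Of 64 replication-dependent histone genes, whose messages normally end without a tail, 40 rose and 1 fell (median 1.61). The rise was not spread evenly: 12 of 12 H3 genes, 11 of 13 H4 genes and 13 of 14 H2B genes rose, but 4 of 20 H2A and 0 of 5 H1 genes did. Hist2h3c1 read 1.06, 0.66, 0.21 and 0.45 untreated and 3.30, 3.53, 3.32 and 3.11 at 6 h, a rise of 2.72 ± 0.32 (SE; limma adjusted p = 1.3e-07). The summed histone share lay at 0.723 to 0.784% untreated and 0.717 to 0.822% at 6 h, so the groups overlapped. The H2B gene Hist2h2be fell by 0.87 ± 0.21 (SE).

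Mitochondrially encoded messages rose in 10 of 13 cases and fell in 0, with a median of 0.64. The summed share was 1.40 to 1.75% untreated and 2.09 to 2.32% at 6 h. Of these mt-Nd5 read 6.88, 6.95, 7.15 and 7.06 untreated and 9.39, 9.15, 8.91 and 8.84 at 6 h, a rise of 2.06 ± 0.18 (SE; limma adjusted p = 1.5e-10), and mt-Co1 rose by 1.02 ± 0.07 (SE). Lars2, the mitochondrial leucyl-tRNA synthetase (chromosome 9, 123366927 to 123462666, plus strand), was the fourth largest rise by the naming rule. It read 4.15, 4.45, 4.68 and 4.16 untreated and 8.17, 7.98, 7.19 and 6.90 at 6 h, and it rose by 3.20 ± 0.19 (SE; limma adjusted p = 2.1e-14). Its TNF libraries had the order of the small RNA share, with guide 1 above guide 2. The part of RNA type, tail or library make-up in these rises was not tested.

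The level at 1 h separated genes that were already high from those that were not. Limma called 640 genes higher (4.82%) and 379 lower (2.86%) at 6 h than at 1 h in control cells, a comparison that shares the 6 h libraries with the one above. Of the 15 largest rises 13 differed between 6 h and 1 h, and so did 14 of the 15 largest falls. Nfkbia was already at 10.64 at 1 h, and its difference from 1 h to 6 h was -0.11 (limma adjusted p = 0.457). Junb likewise stood at 7.35 at 1 h and 7.14 at 6 h, a difference of -0.21 (limma adjusted p = 0.342). Cxcl1 was highest at 1 h, with a mean of 6.72 and a fall of 1.44 to 5.28 at 6 h (limma adjusted p = 0.0135). Irf1 fell by 0.58 from 1 h to 6 h. Tnfaip3 differed by -0.94 (limma adjusted p = 0.155).

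Other genes were near the untreated level at 1 h. Plau was at 2.42 untreated, 2.48 at 1 h and 4.97 at 6 h, Tnip1 at 4.98, 5.00 and 6.51, and Ptges at 7.10, 7.13 and 8.23. Between 1 h and 6 h Plau rose by 2.49 (limma adjusted p = 8.6e-10), Rgs16 by 2.63 and Lif by 2.94. Lif stood at a mean of -1.24 untreated and 0.60 at 1 h. That difference of 1.84 ± 0.62 (SE) did not pass the test (limma adjusted p = 0.166), so an earlier rise is not excluded. Ccl2 rose at both steps, from 6.02 to 8.28 and 10.02, and so did Vcam1, from 4.86 to 5.83 and 7.44. Among the falls Chst1 stood at 5.49, 5.46 and 3.71, Etv1 at 3.10, 2.88 and 0.66 and Ddit4 at 4.68, 4.51 and 2.89. Id1 stood at 4.84 untreated, 3.95 at 1 h and 3.54 at 6 h. Of the 15 falls it alone was not called between 6 h and 1 h, at -0.41 (limma adjusted p = 0.206). Limma already called 3 of the 15 lower at 1 h than untreated, Id1 (-0.885), Ier5l (-0.665) and Id3 (-0.436). Of the lists, 3 of 5 NF-kB subunit genes rose between 1 h and 6 h, and 4 of 31 AP-1 and immediate-early genes did.

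**Figure D3:**
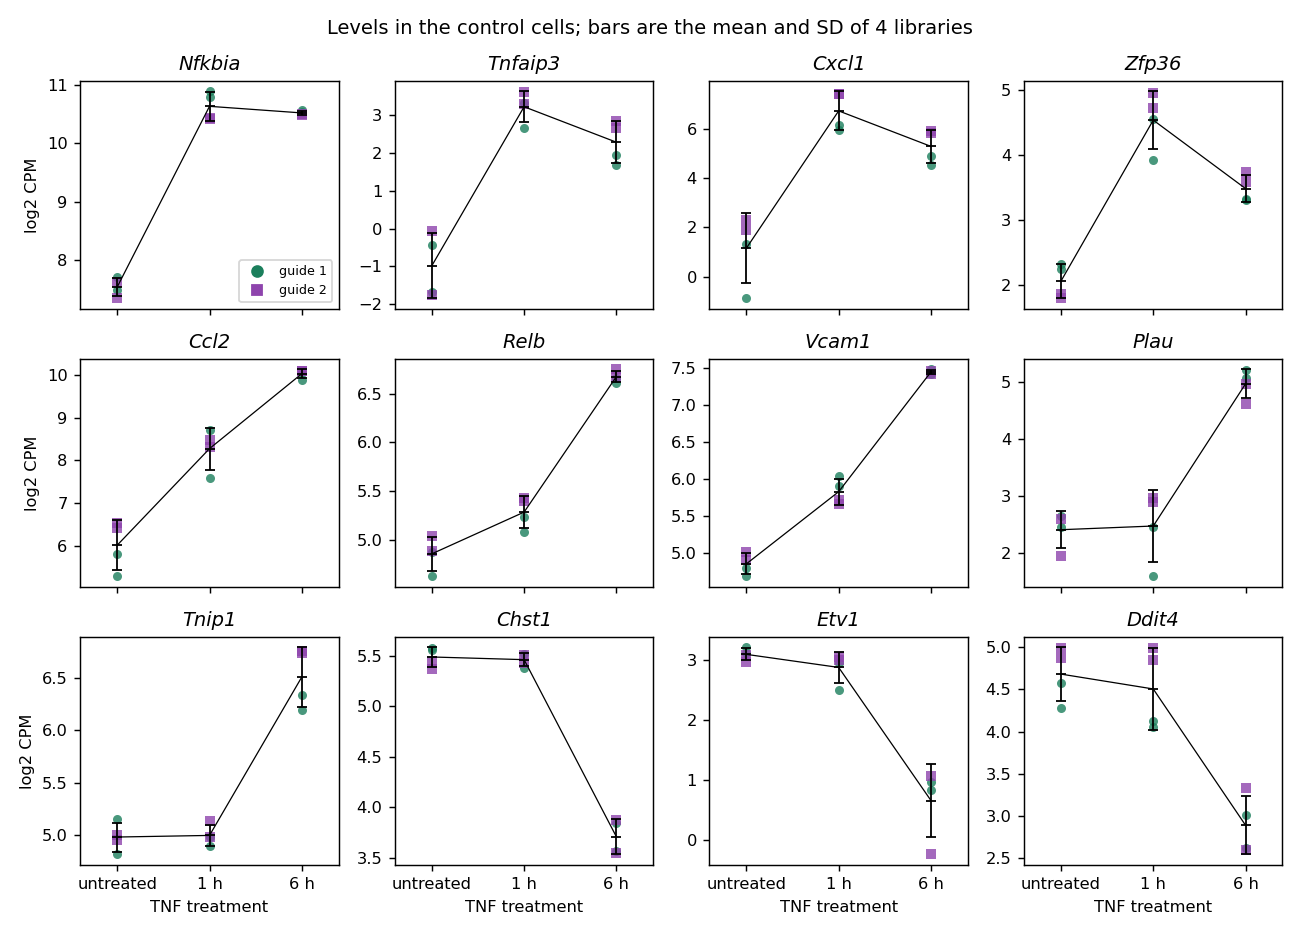
Levels in log2 CPM (vertical axes) of 12 genes in control cells untreated and after 1 h and 6 h of TNF. Circles are guide 1, squares guide 2, and bars the mean and SD of 4 libraries. Nfkbia is as high at 1 h as at 6 h, Cxcl1, with means of 6.72 and 5.28, is higher at 1 h, and Plau, Tnip1, Chst1, Etv1 and Ddit4 at 1 h lie near the untreated level.

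Most genes whose response differed between the guides were small RNAs. A test of the difference between the responses of guide 2 and guide 1 called 18 genes (0.136%), 15 of them with a smaller or opposite change in guide 2, and 1039 at an unadjusted p under 0.05. Of the 18, 14 were small or micro RNA genes by annotation. Rn7sk rose by 7.60 in guide 1 and 6.29 in guide 2. For Snord52, both untreated libraries of guide 1 stood at the lowest value of the table, those of guide 2 read 0.42 and 1.11, and the 6 h libraries read 3.15 and 2.74 in guide 1 and 2.26 and 2.14 in guide 2, so its difference rests on that floor and no fold is given. The 3 protein-coding ones were Arhgef25, a guanine nucleotide exchange factor, with -0.96 in guide 1 and 0.32 in guide 2, Nf2, which encodes merlin, with -0.69 and 0.04, and the homeobox gene Rhox5 with 0.79 and -0.13. None of the 3 was called over both guides, and the untreated levels of the guides already differed: Rhox5 read 5.80 and 5.64 in guide 1 and 7.41 and 7.48 in guide 2. Limma called 0 genes, and 755 at an unadjusted p under 0.05, when protein-coding genes were normalised among themselves. Of the 18 only the 3 protein-coding ones could be tested there. The number of lower genes was 812 from guide 1 alone and 190 from guide 2 alone, and that of higher genes 763 and 494. Of the 218 named genes 90 were not called from guide 2 alone and 47 from guide 1 alone, each with 2 libraries against 2. Of genes given above, Tns2, Creb3l2, Nfkb1, Traf5, Gdf11, Pias3, Pias4, Batf3, Dusp9, Tob1, Etv5, Nos2, Ifitm2, Irf9, Calr, Cflar, Bcl2l11, Bok, Casp9, Mvd, Fdft1, Insig1, Dbp, Rgs12, Sparc, Thbs2, Top2a, P4hb, Asah1, Tfeb and Hist2h2be were among the 90. Traf5, Gdf11, Il17rc, Batf3, Spry2, Dusp9, Tob1, Tgif1, Id2, Tnfrsf10b, Ifitm2, Irf9, Bcl2l11 and Asah1 were among the 47.

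**Figure D4:**
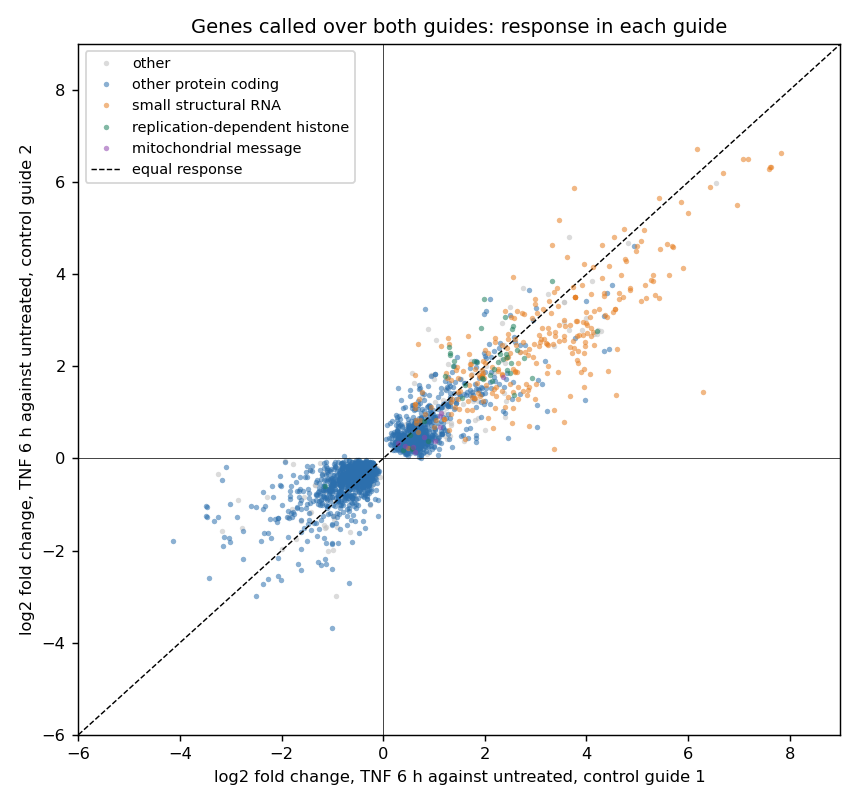
Log2 fold change at TNF 6 h against untreated in control guide 1 (horizontal axis) and control guide 2 (vertical axis) for the 1027 genes called higher and 1365 called lower over both guides, coloured by kind of RNA, with a dashed line of equal response. Rn7sk lies below the line at 7.60 and 6.29 and Nfkbia near it at 2.96 and 3.01.

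The response was set beside that of the Ado KO cells, whose libraries are separate. Ado itself read 5.21 to 5.37 log2 CPM in untreated control cells and 5.27 to 5.43 in untreated Ado KO cells, so Ado was not lower there. Where the guides cut was not given in the sources used here, and an edit need not lower the tag count, so these values do not check the labels. In Ado KO cells, 587 genes were higher (4.42%) and 268 lower (2.02%) at 6 h against untreated. Of the 1027 genes higher in control cells 499 were called higher in Ado KO cells too, which is 48.6% of the first list and 85.0% of the second. Of the 1365 lower genes 192 were, which is 14.1% and 71.6%. The sign was the same for 980 of the 1027 and 1264 of the 1365, and 0 were called in the opposite direction. All 15 of the largest rises and 15 of the largest falls were also called in Ado KO cells. Nfkbia rose by 3.08 ± 0.08 there against 2.99 ± 0.08 in control cells (SE), Ccl2 by 4.02 against 4.00, Vcam1 by 2.47 against 2.59 and Lif by 4.86 against 4.78.

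A test of the difference between the 2 responses called 46 genes (0.347%), all 46 with a smaller or opposite change in Ado KO cells, and 893 at an unadjusted p under 0.05. Of the 46, 26 were snoRNAs and 7 snRNAs, and 2 were protein coding. Lars2 rose by 1.96 in Ado KO cells, 1.24 ± 0.27 less than in control cells (SE; limma adjusted p = 0.027). Itga11, an integrin subunit that binds collagen, read -3.35, -1.70, -0.67 and -0.95 untreated and 1.99, 1.86, 1.44 and 1.71 at 6 h in control cells, and -0.16 was its change in Ado KO cells (limma adjusted p of the difference = 0.029). Its untreated Ado KO libraries read -0.09, 0.92, 0.16 and 0.69, all above the untreated control ones, of which 1 was at the lowest value of the table, so the difference rests in part on the untreated levels. Small RNAs held 1.44 to 1.7% of the summed values in the Ado KO libraries at 6 h, below the 2.18 to 3.35% of control cells. Etv1 fell by 1.14 in Ado KO cells against 2.45, a difference that did not pass the test (limma adjusted p = 0.167). With protein-coding genes normalised among themselves limma called 0 genes, and 571 at an unadjusted p under 0.05. Of the 46 only the 2 protein-coding ones could be tested there.

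**Figure D5:**
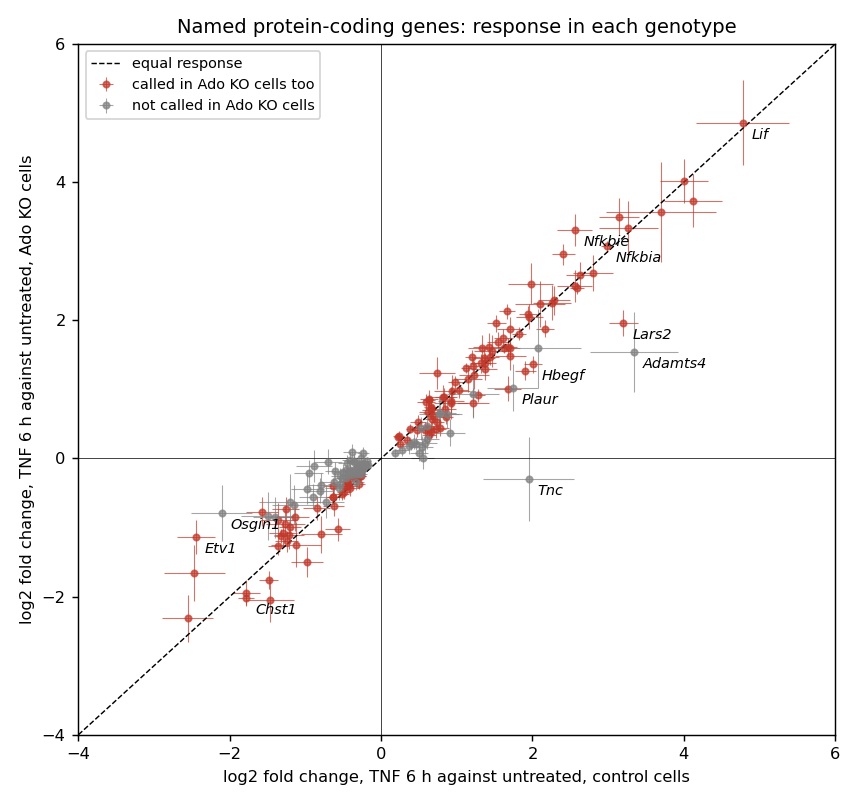
Log2 fold change at TNF 6 h against untreated in control cells (horizontal axis) and Ado KO cells (vertical axis) for the 205 named protein-coding genes other than histone and mitochondrial ones, with SE bars and a dashed line of equal response. Red points (124) were called in Ado KO cells too and grey ones (81) were not. Nfkbia, Lif and Chst1 lie near the line, and Lars2 lies below it at 3.20 and 1.96.

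Of the 15 largest rises and 15 largest falls 7 overlap an annotated gene on the other strand, as Cxcl10 does Art3 and Junb does Prdx2. The kit marks strand, but the counting setting was not given in the sources used here, so tags of such pairs may not be told apart.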

How the data were processed

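RNA of 24 libraries, 4 in each of 6 groups, was read with a QuantSeq 3' mRNA kit, per the labels' protocols. Tools and builds are known only as names, per the submitters' processing notes: limma, featureCounts, Subread, HISAT2, cutadapt 1.7 and FastQC, with GRCm38 and mm10. The deposited table holds log2 CPM values normalised by the authors. The unit is read from the values: unlogged, each library sums to between 998900 and 999014, and all share a lowest value of -3.349 and a highest of 17.04, as after quantile normalisation. For control guide 2 at 1 h, titles and column names give opposite replicate numbers, and titles were followed.

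Genes at 0 or above in at least 4 libraries were kept, so a gene could be kept through TNF libraries alone. Limma 3.58.1 (R 4.3.3, statmod 1.5.0) fitted 6 group means with the 4 guide populations as a random block (correlation 0.0485) and a variance trend, with Benjamini-Hochberg adjustment over 13272 genes. Tests were two-sided. A second fit with 12 means, 1 for each guide in each treatment, gave the guide difference. In simulated data for the main comparison, over 13272 genes, the fit recovered 43.3%, 62.7% and 86.4% of changes of 1.5, 2 and 4-fold, with 8 false calls of 136. Only 67, 67 and 66 genes were changed there. The noise was independent between libraries, with no guide effect and no shift of scale. These settings are simpler than the data, so the figures need not hold for them. The second normalisation quantile-normalised protein-coding genes other than histone and mitochondrial ones among themselves. Alternatives were no filter, a filter at 2, a pseudocount of 1 CPM, that normalisation, equal protein-coding medians, only the groups compared, guides as fixed terms, the replicate number as a block, robust or untrended variances, and leaving out libraries or guides.

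GENCODE M21 (GRCm38) gave positions and biotypes: 15217 symbols had 1 gene there, 41 had several and 132 had none. Promoter windows came from RefSeq. The 48 gene lists, the members and the naming rule were chosen with earlier results of these data known. Named genes were called, protein coding, apart in all 8 libraries and of 1 sign in both guides: the 15 largest rises and 15 largest falls with a mean of at least 3 log2 CPM in the higher group, and up to 4 members per list and direction by adjusted p. Small RNA, histone and mitochondrial lists could name their own. Members that completed a count of 5 or fewer, and Cx3cl1, Rel, Tnfrsf1a and the genes of the guide and genotype tests, were named after their values were seen. Same-numbered libraries of the 2 groups deviated together at 0.016 to 0.074, so numbers were not used as pairs. Python 3.11.15 and matplotlib 3.10.9 served for summaries and figures. Some results are not reported here.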

Additional observations from a re-analysis of the deposited data

Results flagged for a closer look

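Lars2 had a response in Ado KO cells that was 1.24 lower than in control cells on the log2 scale (-1.24 as Ado KO minus control), by limma's test of the difference. The responses of 3 small RNA genes differed between the control guides by the same kind of test: guide 2 minus guide 1 was -1.31 for Rn7sk, -1.16 for Rnu3b1 and -1.19 for Rnu3b3, of which Rnu3b1 and Rnu3b3 are near-identical copies. In 60 groups of 4 libraries, those of the 15 largest rises and 15 largest falls, 0 had a library far from the other 3 by Dixon's test. These genes were chosen for groups that did not overlap, so the test's usual 1 in 20 need not apply to them.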

How the results depend on the processing

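Of 218 named genes, of which 205 could be run with protein-coding genes normalised among themselves and 210 with the stricter filter, 0 changed sign in the alternatives run. The naming rule asks protein-coding genes for groups apart and 1 sign in both guides. Leaving out a library or guide therefore could not change their sign, and other variance settings leave the difference itself unchanged. In those that kept both guides, each of the 8 fits without 1 library included, 172 were called throughout, but 90 of 218 were not called without guide 1 and 47 without guide 2. None of the 15 largest rises or 15 largest falls by the naming rule lost its call with both guides kept. Against untreated, 1027 genes rose and 1365 fell in control cells. Leaving out 1 library gave 782 to 964 and 785 to 1199, the lowest falls being without untreated 1-1 (785), TNF 6 h 1-1 (799) and untreated 1-2 (864). Without guide 1 the counts were 494 and 190, and without guide 2 the falls were 812. Protein-coding genes normalised among themselves gave 681 and 708, with fewer genes tested, and equal protein-coding medians 862 falls. For 6 h against 1 h, that normalisation gave 336 rises and 191 falls, the compared groups alone 155 falls, and leaving out 1 library 560 to 644 rises and 274 to 451 falls. The guide difference called 18 genes, 88 with the compared groups alone, 3 without the variance trend and 5 to 17 with 1 library left out. Only 3 of the 18 were protein coding and could be tested with protein-coding genes normalised among themselves, where 0 were called. In Ado KO cells the normalisation gave 375 rises, and leaving out 1 library 494 to 517 rises and 188 to 220 falls. The genotype difference called 46 genes, 73 with the compared groups alone, 70 with guides as fixed terms and 30 without the trend. Only 2 of the 46 were protein coding and could be tested with protein-coding genes normalised among themselves, where 0 were called. With 1 library left out 27 to 52 were called, 28 without Ado KO untreated 2-1 and 27 without control TNF 6 h 1-1. The cause of these shifts was not tested. With the replicate block 1056 genes rose and 1413 fell in control cells, and the block gave 70 genes for the genotype difference, though the numbers do not pair the libraries. The shared lowest value limits what can be read of genes near it.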
